A study of Mus musculus with 8 samples.

Results

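Splicing factors and heterogeneous nuclear ribonucleoproteins (hnRNPs) were examined in single mouse blastocysts at embryonic day (E) 3.5, in which RNA-seq reads of both parental alleles had been counted separately. The genes were chosen by symbol alone: SR proteins (Srsf), hnRNPs (Hnrnp), SF3A and SF3B subunits (Sf3a, Sf3b), Sm and other snRNP proteins (Snrp), U2AF subunits (U2af), pre-mRNA processing factors (Prpf) and RNA-binding motif proteins (Rbm), without the imprinted gene Snrpn and the X-linked genes Hnrnph2, Rbm3, Rbm10 and Rbm41. Of 22810 genes in the table, 101 matched these symbols and 96 remained after the exclusions. Rbm3os, an X-linked antisense transcript of Rbm3 with 27 reads, matched the rule but was not tested, which left 95 autosomal genes. Of these, 89 had at least 10 reads in at least 1 allele of 1 embryo and entered the tests. The other 6 were U2af2 with 75 reads over all embryos, Prpf40b with 32, Rbm38 with 26, Rbm8a with 22, Snrpd2 with 9 and Rbm24 with 2.

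The blastocysts were F1 hybrids of the inbred strain C57BL/6 (B6) and Mus musculus castaneus (cast). In the forward cross (3 embryos) the mother was B6 and the father cast, and in the reverse cross (5 embryos) the mother was cast and the father B6. All were from natural mating, were not cultured and received no treatment, and each was an individual blastocyst with all its lineages. How many litters they came from is not given in the sources used here. The p-values therefore measure the spread between these embryos or their allele libraries and not between litters. Only reads that covered a position differing between the strains were counted. A maternal read was therefore a B6 read in the forward cross and a cast read in the reverse cross, which allows an effect of the parent to be told apart from an effect of the strain.

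Splicing removes introns from pre-mRNA on the spliceosome, a large assembly of small nuclear RNAs and proteins. The Sm proteins form a ring around most of these RNAs, U2AF and the SF3A and SF3B subunits recognise the end of the intron and the branch point, and the PRPF proteins act in the assembly and the catalytic core, where Prpf8 sits. SR proteins usually promote the use of an exon by binding to it, hnRNPs bind nascent RNA and often act in the opposite direction, and many RBM proteins regulate or join the spliceosome. Early embryos depend on this machinery, and mouse embryos without Srsf3 fail to form blastocysts.

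The embryos had 1060063 to 1632695 allelic reads each, of which the 89 genes took between 0.976% and 1.18% of the autosomal reads. Their share was 1.09% to 1.18% in the forward embryos and 0.976% to 1.11% in the reverse embryos, so that the ranges overlapped. Markers of the blastocyst lineages were present, with reads for 10 of 10 trophectoderm, 10 of 10 inner cell mass and epiblast and 8 of 8 primitive endoderm genes. Reverse embryo 1 stood apart: its trophectoderm markers summed to 1514 RPM (allelic reads per 1000000 autosomal allelic reads of the embryo) against 4215 to 5554 in the other embryos, and over all tested genes its correlation with any other embryo was at most 0.786 (Spearman), while each of the others reached at least 0.913 with some embryo. Most of this marker difference came from the keratins Krt8 and Krt18. They had 456 and 285 reads in reverse embryo 1, and 2126 to 3231 and 1237 to 2482 in the other embryos. The trophectoderm sum therefore does not describe each marker. Among the 89 genes, reverse embryo 1 was the highest of the 8 embryos for 30 and the lowest for 28. Leukocyte markers summed to 862 RPM in forward embryo 1, to 50.6 and 59.2 in the other forward embryos and to 4.62 to 7.06 in the reverse embryos, and 98.8% of these reads were maternal. All 10 leukocyte genes had reads in at least 1 embryo, but Lyz2 gave most of them, with 1055, 38 and 43 reads in the forward embryos. Ptprc and Tyrobp had 27 and 25 reads in forward embryo 1 and 0 in forward embryos 2 and 3. Oocyte markers summed to 7.99 to 20.7 RPM, cumulus cell markers to 1.37 to 16.9, red blood cell markers to at most 0.969 and oviduct and uterine epithelium markers to 97.6 to 234. Results are therefore also given without reverse embryo 1 or forward embryo 1 where their calls change.

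To ask whether splicing genes are expressed differently from the parental alleles, paternal and maternal reads were compared in a model with strain and parent as terms (edgeR's quasi-likelihood test, Benjamini-Hochberg adjusted p of at most 0.1 over all 12565 tested genes). None of the 89 genes showed a parental bias, whereas 179 of all tested genes did (1.42%). No splicing gene had an unadjusted p under 0.05 in edgeR, against 920 (7.32%) of all tested genes, and DESeq2 called 0 as well. The estimates were small. The median absolute log2 fold change between the parental alleles was 0.17 for the splicing genes and 0.29 for all tested genes, 48 of the 89 pointed to the paternal and 41 to the maternal allele, and the extremes were -0.69 and 0.93. Snrpn, which the rule leaves out because it is imprinted, had 0 to 5 maternal and 11 to 45 paternal reads per embryo in the same libraries.

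The smallest p-values belonged to Hnrnpa0, Rbm44, Snrpd1, Rbm27, Prpf8 and Rbm14. Hnrnpa0, an hnRNP that binds AU-rich elements, had 25 maternal and 22 paternal, 18 and 10, and 13 and 10 reads in the forward embryos, and 19 and 6, 22 and 16, 21 and 11, 15 and 8, and 7 and 8 reads in the reverse embryos. Maternal reads were more numerous in 7 of 8 embryos, but the log2 fold change of -0.60 ± 0.36 (SE) did not pass the test (edgeR adjusted p = 0.913). Prpf8, which forms the core of the catalytic spliceosome, had 64 and 105, 63 and 70, and 105 and 88 maternal and paternal reads in the forward embryos. In the reverse embryos it had 65 and 122, 104 and 115, 76 and 108, 84 and 135, and 56 and 66. The paternal allele was ahead in 7 of 8 embryos with a log2 fold change of 0.30 ± 0.23 (SE), which did not pass either (edgeR adjusted p = 1.0). Snrpd1, a core Sm protein, had the largest estimate, 0.93 ± 0.59 (SE) in log2, on 144 reads in all (edgeR adjusted p = 0.965). Rbm44 (0.64 ± 0.40) and Rbm14 (-0.48 ± 0.40) were led by the same parent in no more than 5 embryos. Rbm27 was led by the paternal allele in 4 embryos and by the maternal allele in 4. Its paternal share was 58.4%, 72.5% and 63.6% in the forward embryos, 79.7% in reverse embryo 1 and 36.1% to 46.3% in the other reverse embryos.

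**Figure D1:**
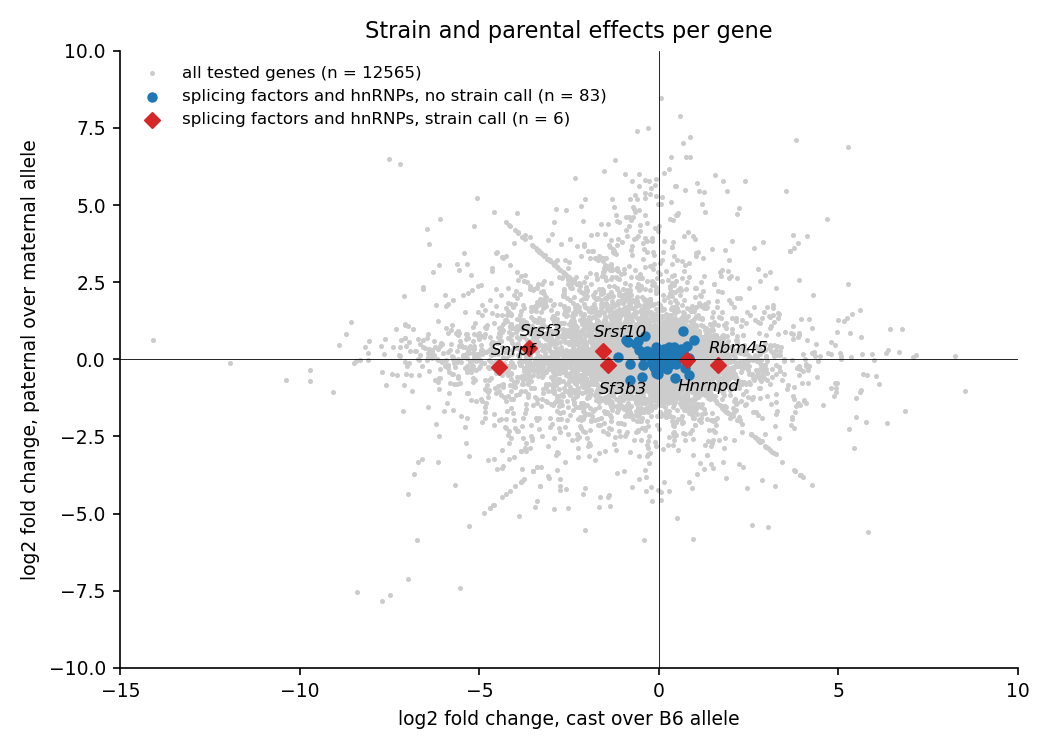
Log2 fold change of the cast over the B6 allele (horizontal axis) and of the paternal over the maternal allele (vertical axis) for all 12565 tested genes (grey) and the 89 splicing factors and hnRNPs, with the 6 genes called between the strains as red diamonds. The splicing genes lie between -0.69 and 0.93 on the parental axis but reach -4.44 and 1.64 on the strain axis. The fit has no term for each embryo.

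The absence of a call does not show that the alleles were equal, so equivalence was tested against a log2 fold change of 1 in either direction (edgeR's quasi-likelihood test run one-sided against each margin, adjusted p of at most 0.1). By this test 52 of the 89 genes (58.4%) were expressed equivalently from both parental alleles, compared with 35.6% of all tested genes. The splicing genes also had more reads, with a median of 518 over the 8 embryos against 309 for all tested genes, and the part of read depth in the difference was not tested. Equivalence was found for 6 of 10 SR proteins, 10 of 19 hnRNPs, 6 of 8 SF3A and SF3B subunits, 5 of 10 Sm and snRNP proteins, 1 of 2 U2AF subunits, 10 of 12 PRPF proteins and 14 of 28 RBM proteins. Median reads per tested gene were 943, 394, 1180, 1487, 392, 809 and 426 in these groups in the same order. With a margin of 1.5-fold instead, no gene in the table passed, and 17 splicing genes had an unadjusted edgeR p under 0.05, against 9.05% of all tested genes.

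The smallest p-values of equivalence were those of Sf3b1, Srsf7, Snrpb2, Hnrnpu, Srsf6 and Rbm5, each with an edgeR adjusted p of 0.0166. Sf3b1, the SF3B subunit that holds the branch point, had a paternal share of 40.8% ± 5.0 (SD, n = 3) in the forward cross and 57.6% ± 4.7 (SD, n = 5) in the reverse cross. In both crosses the larger share was that of B6, and the parental log2 fold change was -0.06 ± 0.22 (SE). Srsf7, an SR protein with a zinc knuckle, had paternal shares of 46.6% ± 7.9 and 54.5% ± 2.5 (SD), and a parental log2 fold change of -0.01 ± 0.23. Hnrnpu, a nuclear matrix hnRNP, was near equal in both crosses with 51.2% ± 7.9 and 51.1% ± 1.0. Snrpb2, a U2 snRNP protein, was equivalent between the parents although its paternal shares were 38.9% ± 7.0 (forward) and 65.4% ± 2.4 (reverse), since the B6 allele led in all 8 embryos. Srsf6, an SR protein, had 53.3% ± 3.1 and 48.3% ± 5.5, and Rbm5, a regulator of 3′ splice site choice, had 43.3% ± 7.9 and 61.7% ± 5.8.

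Hnrnpa2b1, an hnRNP that binds UAG-containing RNA, had 14522 allelic reads in all and so a small counting error. Its maternal and paternal reads were 1108 and 1223, 825 and 806, and 985 and 985 in the forward embryos. In the reverse embryos they were 619 and 638, 767 and 779, 1198 and 1164, 794 and 836, and 860 and 935. The alleles were near equal in every embryo, with a B6 share of 50.2% ± 1.4 (SD) over the embryos. Sf3b5, the smallest SF3B subunit, had B6 shares of 57.0%, 58.0% and 56.2% in the forward embryos and 54.3%, 52.9%, 58.5%, 61.2% and 56.9% in the reverse embryos, so that B6 was moderately ahead whichever parent carried it. Both genes passed the test of equivalence (edgeR adjusted p = 0.0169 each).

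Among 29 core splicing factors, 27 were tested and 19 were equivalent between the parents. The 8 others were Srsf3, Srsf5, Hnrnpa1, Hnrnpk, Sf3b2, U2af1, Snrpa and Snrpd1, of which Srsf3 had 1405 reads over the embryos and the rest between 22 and 247. The SR protein Srsf2 had a B6 share of 58.5% ± 4.1 (SD) and Srsf1, the SR protein also known as ASF, one of 57.6% ± 13.3, with parental log2 fold changes of 0.01 ± 0.44 and 0.07 ± 0.44 (SE). The U2 snRNP subunits Sf3a1 and Sf3a3 had B6 shares of 52.9% ± 6.7 and 49.1% ± 12.7. Of the Sm proteins, Snrpb and Snrpd3 were at 53.8% ± 4.4 and 56.3% ± 3.2, while Snrpe was at 63.2% ± 4.0 with B6 ahead in 8 of 8 embryos. Prpf19, the ubiquitin ligase of the spliceosome, was at 48.8% ± 6.7, and Prpf6, a bridging protein of the tri-snRNP, at 56.9% ± 15.5. The RBM proteins Rbm25, Rbm39 and Rbm17 were at 49.4% ± 4.1, 54.8% ± 4.2 and 54.9% ± 12.9. The widest spreads among these belonged to Prpf6 with 396 reads, Srsf1 with 537, Rbm17 with 634 and Sf3a3 with 1781. Over the 57 splicing genes with at least 20 reads in every embryo, the median SD of the paternal share was 6.95 percentage points in the forward and 7.32 in the reverse embryos, where counting error alone would give 4.02 and 4.60. For 5608 tested genes with the same minimum the median SD was 6.70 and 9.06.

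The number of equivalent genes depended on the embryos. Without forward embryo 1, 2 or 3 it was 28, 27 or 26 of 89, all of them among the 52, while 17.1%, 14.7% and 12.9% of all tested genes passed. Without reverse embryo 1 it was 61 of 86, of which 51 were among the 52, while 47.4% of all tested genes passed. For 21 of the genes equivalence was called with all embryos and under each of the alternatives that kept the 2-fold margin.

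**Figure D2:**
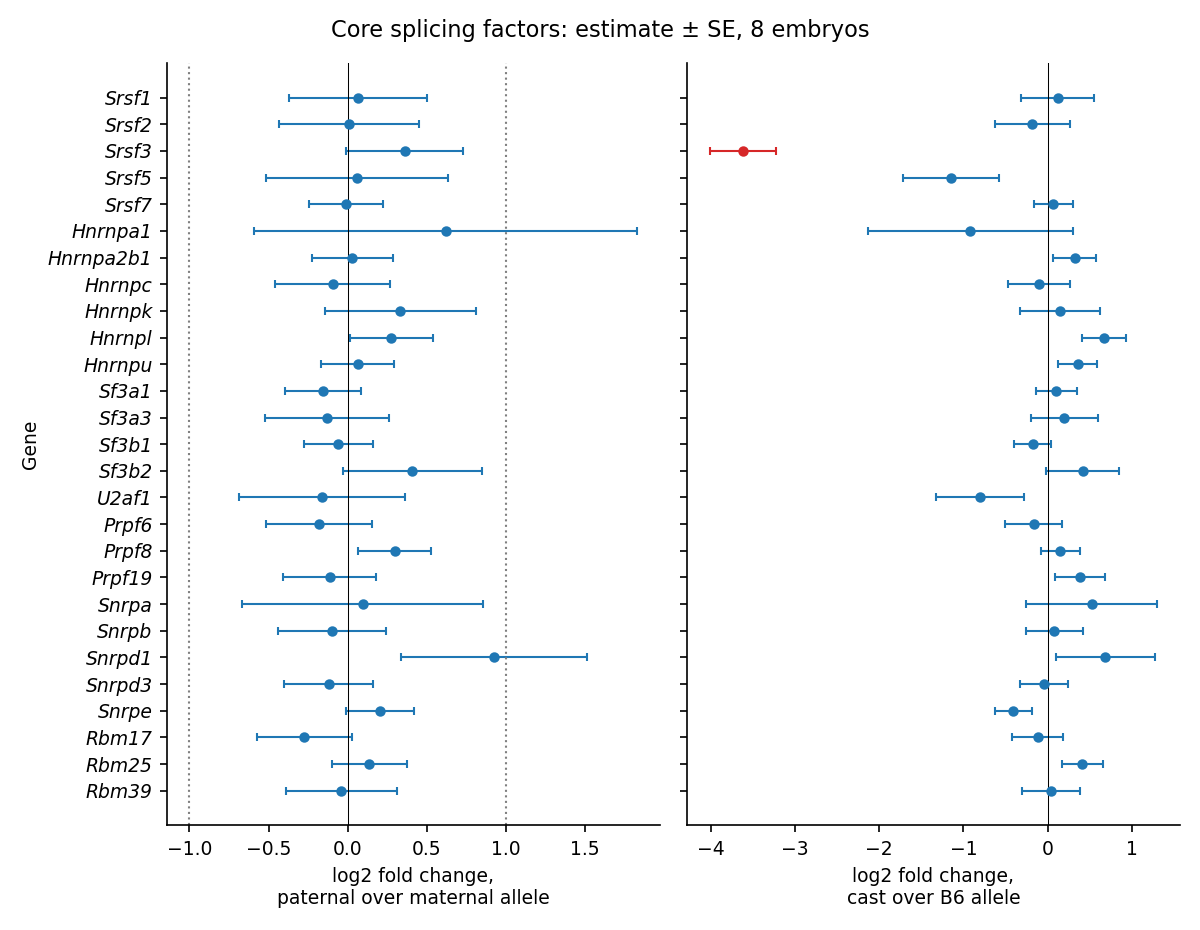
Log2 fold change of the paternal over the maternal allele (left; dotted lines mark the equivalence margin of 1) and of the cast over the B6 allele (right) for the 27 tested core splicing factors, as the estimate ± SE over 8 embryos, with a call in red. In this fit, without a term for each embryo, no core gene is called on the parental axis. Srsf3 is the only core gene it calls on the strain axis, with a log2 fold change of -3.62. With that term other core genes, such as Hnrnpa2b1, Snrpe and Srsf5, are called between the strains as well.

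The median paternal share of the splicing genes, over those that reached 20 reads in the embryo concerned, was 46.2%, 44.1% and 44.96% in the forward embryos, with a mean of 45.1% ± 1.1 (SD, n = 3). It was 59.3%, 52.9%, 53.8%, 53.9% and 54.6% in the reverse embryos, with a mean of 54.9% ± 2.5 (SD, n = 5). Written as the share of the B6 allele, these are 54.9% ± 1.1 and 54.9% ± 2.5. The paternal shares of the crosses therefore mirrored each other, and all tested genes did the same with B6 shares of 55.9% ± 0.5 and 56.4% ± 1.0. The splicing genes made up a larger percentage of the cast reads than of the B6 reads in each of the 8 embryos, for example 1.17% against 1.03% in forward embryo 1 and 1.01% against 0.954% in reverse embryo 1. Each percentage is taken of that allele's own reads, which are fewer for cast. In the median share of the splicing genes B6 was ahead in every embryo, so this is not an excess of cast reads. The same percentages were not computed for other groups of genes.

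The comparison of the strains called 6 of the 89 splicing genes (6.74%) with the same edgeR test and threshold, against 1945 (15.5%) of all tested genes. This fit has no term for each embryo and so does not pair the alleles. With that term 22 of the 89 genes (24.7%) were called, against 25.5% of all tested genes. No shortage of strain calls is therefore read from the 6. Of the 6, Snrpf, Srsf3, Srsf10 and Sf3b3 were higher from the B6 allele, a direction called without the term for 11.0% of all tested genes. Rbm45 and Hnrnpd were higher from the cast allele, a direction called for 4.45%. The changes of Snrpf and Srsf3 were far larger than those of the other splicing genes, of which Srsf5 at -1.14 ± 0.57 (SE) was the most negative without a call. Over all 89 genes the median log2 fold change of cast over B6 was 0.04, and over all tested genes it was -0.06. In 50 genes it pointed to cast and in 39 to B6. These fold changes are relative to the TMM scaling of the allele libraries. B6 reads are the majority in every embryo, so a gene with as many B6 as cast reads has a fold change toward cast. Reads of both strains were aligned to the B6 genome, and the part of the alignment in the lead of B6 was not tested.

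Snrpf encodes a protein of the Sm ring and lies on mouse chromosome 10 (GRCm38, 93583029 to 93589706, minus strand). In the forward embryos it had 259 B6 and 16 cast reads, 177 and 5, and 203 and 1. In the reverse embryos it had 69 B6 and 1 cast read, 163 and 8, 194 and 4, 214 and 9, and 120 and 9. The B6 share was 96.5% ± 2.2 (SD, n = 8), above 90% in every embryo, and the log2 fold change of cast over B6 was -4.44 ± 0.43 (SE, edgeR adjusted p = 7.93e-08). Between the parents the log2 fold change was -0.25 ± 0.40 (SE). Exons of Snrpf overlap exons of Ccdc38 and 4933408J17Rik on the other strand, and since it is not stated whether the counting used strand, reads there cannot be assigned with certainty.

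Srsf3 encodes an SR protein that also acts in mRNA export and lies on chromosome 17 (29032628 to 29043373, plus strand). It had 172 B6 and 24 cast, 109 and 9, and 144 and 4 reads in the forward embryos. In the reverse embryos it had 81 B6 and 19 cast, 224 and 2, 292 and 6, 151 and 11, and 149 and 8. The B6 allele was ahead in 8 of 8 embryos with a share of 93.0% ± 6.1 (SD), lowest in reverse embryo 1 at 81.0%. The log2 fold change was -3.62 ± 0.39 (SE, edgeR adjusted p = 5.26e-07).

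Snrpf and Srsf3 both have near-identical copies elsewhere in the genome, and the counts leave out reads that align to several places. The coding sequence of each is printed beside that of its closest copy in the GENCODE M21 annotation. A read that lies within such a stretch and covers none of the few differing bases matches both places equally. Gm13092 is a processed pseudogene on chromosome 4 (150315177 to 150315436, minus strand) that matches the Snrpf coding sequence from base 4 to base 261 with 3 differences in 258 bases. Gm12355, on chromosome 11 (98624351 to 98625661, minus strand), is annotated as protein coding and differs from Srsf3 at 4 of the first 260 aligned positions, of which 3 are bases absent from the copy. Sequences are of the reference genome GRCm38, written 5′ to 3′ on the coding strand, and capitals mark the bases that differ.
Snrpf: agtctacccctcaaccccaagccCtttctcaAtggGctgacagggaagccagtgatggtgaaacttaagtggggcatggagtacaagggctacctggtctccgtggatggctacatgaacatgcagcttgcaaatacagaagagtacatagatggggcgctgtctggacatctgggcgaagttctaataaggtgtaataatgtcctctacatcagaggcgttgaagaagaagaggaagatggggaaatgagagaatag
Gm13092: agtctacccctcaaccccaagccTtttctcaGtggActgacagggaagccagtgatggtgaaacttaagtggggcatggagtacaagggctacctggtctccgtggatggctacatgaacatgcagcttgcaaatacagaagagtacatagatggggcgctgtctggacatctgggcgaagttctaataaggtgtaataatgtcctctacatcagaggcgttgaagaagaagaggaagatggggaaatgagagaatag
Srsf3: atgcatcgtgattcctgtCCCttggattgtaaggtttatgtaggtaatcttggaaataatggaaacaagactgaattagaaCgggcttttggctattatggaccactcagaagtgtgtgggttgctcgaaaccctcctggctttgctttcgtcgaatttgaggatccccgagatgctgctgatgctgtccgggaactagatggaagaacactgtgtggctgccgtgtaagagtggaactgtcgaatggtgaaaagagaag
Gm12355: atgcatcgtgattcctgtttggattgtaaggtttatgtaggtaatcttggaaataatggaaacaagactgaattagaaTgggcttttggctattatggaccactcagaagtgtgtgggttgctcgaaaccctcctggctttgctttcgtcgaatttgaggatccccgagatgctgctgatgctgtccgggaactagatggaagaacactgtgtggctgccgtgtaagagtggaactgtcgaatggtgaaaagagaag
Copies of at least 95% identity over at least 100 bases cover 29.97% of the Snrpf transcript and, as 5 copies of which 4 are pseudogenes, 49.5% of the Srsf3 transcript. Neither Gm13092 nor Gm12355 has a row in the table. These are reference sequences, and which strain-specific bases lie in the copies was not analysed here. The part of the copies in the difference between the strains was not tested.

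Srsf10, an SR protein that can repress splicing when dephosphorylated, lies on chromosome 4 (135855747 to 135869908, plus strand). Its B6 and cast reads were 59 and 17, 22 and 6, and 42 and 16 in the forward embryos, and 39 and 17, 40 and 8, 69 and 14, 69 and 13, and 36 and 6 in the reverse embryos. The B6 share was 79.3% ± 5.8 (SD) and above 50% in all 8 embryos, with a log2 fold change of -1.56 ± 0.33 (SE, edgeR adjusted p = 0.00252). Its 2 copies, both pseudogenes, cover 14.6% of the transcript. Sf3b3, a subunit of SF3B on chromosome 8 (110810239 to 110846787, minus strand), had 120 B6 and 33 cast, 56 and 10, and 49 and 19 reads in the forward embryos. It had 37 and 21, 50 and 8, 35 and 7, 62 and 26, and 36 and 10 in the reverse embryos. B6 was ahead in each of them, with a share of 77.2% ± 7.9 (SD) and a log2 fold change of -1.41 ± 0.35 (SE, edgeR adjusted p = 0.00746). Sf3b3 has no near-identical copy in the annotation, but its exons overlap those of Cog4 on the other strand and of the small RNA genes Snord111 and Gm22193 on its own. These 4 genes were called toward B6 under each of the 15 alternatives.

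The genes called toward cast kept their calls under fewer alternatives. With a term for each embryo both were called (edgeR adjusted p = 0.0281 for Rbm45 and 0.0248 for Hnrnpd). Rbm45, an RNA-binding protein of the nervous system, lies on chromosome 2 (76369984 to 76383768, plus strand) and had few reads. The B6 and cast reads were 16 and 35, 5 and 5, and 10 and 28 in the forward embryos, and 19 and 12, 2 and 28, 9 and 39, 2 and 20, and 4 and 2 in the reverse embryos. The cast allele was ahead in 5 embryos and the B6 allele in 2, both of the reverse cross, and the B6 share of 33.8% varied with an SD of 23.1. The log2 fold change was 1.64 ± 0.54 (SE, edgeR adjusted p = 0.0499). It was no longer called without forward embryo 1 or 3 or without reverse embryo 2, 3 or 5 (edgeR adjusted p of 0.161, 0.187, 0.106, 0.125 and 0.108). Hnrnpd, also known as AUF1, binds AU-rich elements of short-lived mRNAs and lies on chromosome 5 (99955935 to 99978938, minus strand). Its B6 and cast reads were 35 and 67, 38 and 40, and 50 and 62 in the forward embryos, and 40 and 36, 28 and 32, 33 and 49, 21 and 51, and 27 and 35 in the reverse embryos. The cast allele was ahead in 7 of 8 embryos with a log2 fold change of 0.77 ± 0.28 (SE, edgeR adjusted p = 0.0793). This call was lost without any forward embryo or without reverse embryo 3, 5 or 7, with edgeR adjusted p between 0.127 and 0.270. An antisense transcript, Gm17092, overlaps exons of Hnrnpd.

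**Figure D3:**
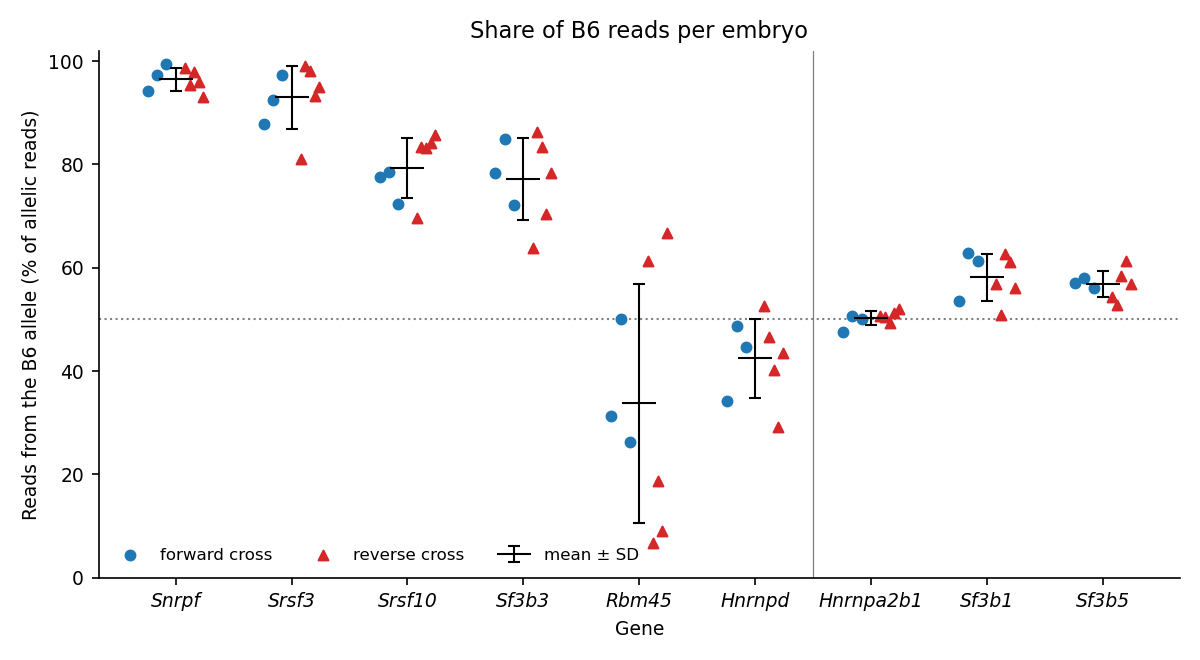
Share of B6 reads among allelic reads (percent) in each embryo for the 6 genes called between the strains and, right of the line, for Hnrnpa2b1, Sf3b1 and Sf3b5, with circles for the forward and triangles for the reverse cross and bars for the mean ± SD over 8 embryos. Snrpf stays above 90% in both crosses, Rbm45 ranges from 6.67% to 66.7%, and Hnrnpa2b1 lies within 47.5% and 52.1%. The calls are those of the fit without a term for each embryo.

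The maternal and the paternal reads of an embryo come from the same blastocyst, so the alleles are paired within embryos. With a block for each embryo in the model, the strain comparison called 22 of the 89 splicing genes (24.7%), against 25.5% of all tested genes. Of these, 13 were higher from cast, a direction called for 9.69% of all tested genes, and 9 were higher from B6, called for 15.8%. All 6 genes named above were among the 22. The largest further ones were Srsf5 (-1.42), Rbm20 (-1.13), Rbm44 (1.08), Rbm27 (0.76), Sf3b6 (0.73), Hnrnpl (0.69) and Rbm34 (0.66), with log2 fold changes of cast over B6 in parentheses. Genes with small differences were also called, such as Rbm47 at -0.45 ± 0.10 (SE, edgeR adjusted p = 0.00201) and Hnrnpa2b1 at 0.33 ± 0.07 (SE, edgeR adjusted p = 0.00118). Hnrnpa2b1 had 7270 B6 and 7252 cast reads, so its difference is one from the scaling of the libraries and not an excess of cast reads. Srsf5, an SR protein, had 17 B6 and 11 cast, 12 and 5, and 15 and 1 reads in the forward embryos, and 13 and 20, 22 and 9, 25 and 3, 24 and 3, and 9 and 0 in the reverse embryos. B6 was ahead everywhere except in reverse embryo 1. The block changed no parental call of a splicing gene. With it 61 of the 89 genes were equivalent between the parents, against 45.3% of all tested genes.

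Without reverse embryo 1, 10 of 86 splicing genes were called between the strains (11.6%), against 20.6% of all tested genes, as Srsf5 (-1.61), Hnrnpl (0.77), Rbm27 (0.96) and Rbm44 (1.14) were added. Without forward embryo 1, the 4 genes higher from B6 remained and those higher from cast did not, and 9.90% of all tested genes were called. How the libraries are scaled also mattered. With 1 library size for both alleles of an embryo, the median log2 fold change of all tested genes moved from -0.06 to -0.40, and the median of the splicing genes turned from 0.04 to -0.30. Then 9 splicing genes were called, all of them toward B6, where 20.5% of all tested genes were called and 17.9% toward B6. Rbm45 and Hnrnpd were then not called (1.27 and 0.44).

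Copies were more widespread among the splicing genes than these examples. Of the 95 autosomal genes, 29 had at least 1 copy by the criteria above, and in 21 the copies covered at least 20% of the transcript. These 21 had a median of 189 reads over all embryos, compared with 555 for the other 74, and 18 of them were tested. Of those 18, Snrpf and Srsf3 were called between the strains, and the median log2 fold change of cast over B6 was -0.48, compared with 0.10 and 4 called of 71 for the rest. This is a description of genes that were grouped by their sequence, with no test. Hnrnpa1, a widely expressed hnRNP, has 12 copies of which 11 are pseudogenes, over 58.5% of its transcript, and had 22 reads in all embryos together. U2af1, which recognises the AG at the intron end, has 3 pseudogenes over 74.7% of its transcript. Its B6 share was 60.7%, 76.7% and 76.2% in the forward embryos and 91.4%, 85.0%, 14.3%, 50% and 70% in the reverse embryos, and so varied more between embryos than that of the genes called. U2af2 (64.8%), Snrpd2 (25.1%) and Rbm8a (22.7%), which had too few reads for a test, belong to the same set. The part of the copies in these low counts was not tested.

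Promoter sequences were available from RefSeq (GRCm38.p6) for 80 of the 95 genes. They were rich in CpG, with a median of 19 CpG in the 250 bases before the start, against 16 for tested genes and 6 for all genes. Motifs were searched by their letters on both strands. The ETS core CCGGAAG was found in 22 of the 80 (27.5%), in 15.2% of 9579 tested genes and in 7.83% of 27025 genes with a promoter in the table. The CCAAT box was found in 46.3%, 39.6% and 37.5%, the GC box GGGCGG in 56.3%, 58.6% and 35.4%, the YY1 core ATGGCGG in 7.5%, 4.25% and 2.58%, the TATA box TATAAA in 8.75%, 8.21% and 14.3%, and the cAMP response element TGACGTCA in 2.5%, 3.04% and 1.77%. These shares describe the sequences and were not tested. The promoters of the genes called toward cast are shown because neither gene has pseudogene copies, although Hnrnpd has short matches over 1.67% of its transcript. Rbm45 (chr2:76369734-76369983, plus strand) held 6 CpG and 1 ETS core, and Hnrnpd (chr5:99978939-99979188, minus strand) held 39 CpG, 3 GC boxes and 1 ETS core, with motifs in capitals.
Rbm45: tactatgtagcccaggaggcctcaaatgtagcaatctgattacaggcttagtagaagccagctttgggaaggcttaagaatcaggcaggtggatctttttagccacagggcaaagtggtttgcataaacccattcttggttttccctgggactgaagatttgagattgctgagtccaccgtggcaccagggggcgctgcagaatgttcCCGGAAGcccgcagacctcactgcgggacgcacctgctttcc
Hnrnpd: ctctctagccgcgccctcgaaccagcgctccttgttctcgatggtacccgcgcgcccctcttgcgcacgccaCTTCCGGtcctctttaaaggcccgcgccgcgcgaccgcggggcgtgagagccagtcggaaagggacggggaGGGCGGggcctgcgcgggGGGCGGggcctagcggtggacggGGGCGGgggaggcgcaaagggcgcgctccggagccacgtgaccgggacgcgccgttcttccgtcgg

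To ask whether the direction of the cross changes the level of splicing genes, the sum of both alleles was compared between the reverse and the forward embryos. With edgeR and the same threshold none of the 89 genes differed, where 13 of all tested genes did (0.103%). At an unadjusted p under 0.05 there were 4 splicing genes (4.49%) against 7.38% of all tested genes, and DESeq2 also called 0. Prpf31, a protein of the U4/U6 snRNP, had 221, 331 and 319 RPM in the forward embryos and 125, 152, 151, 169 and 187 in the reverse embryos. The log2 fold change was -0.88 ± 0.30 (SE, edgeR adjusted p = 0.517). Rbm25, which regulates the choice of 5′ splice sites, had 448, 427 and 437 against 363, 227, 219, 273 and 269 RPM (-0.70 ± 0.28, edgeR adjusted p = 0.567). Hnrnpab, an hnRNP of the same subfamily as Hnrnpd, had 396, 500 and 621 against 180, 232, 378, 370 and 250 (-0.80 ± 0.36, edgeR adjusted p = 0.662). Rbm19, which acts in ribosome biogenesis, had 194, 232 and 151 against 74.9, 105, 106, 146 and 88.2 (-0.86 ± 0.32, edgeR adjusted p = 0.552). In each of these 4 genes the lowest forward embryo was above the highest reverse embryo. The gap was narrow for Rbm19 (151 against 146 RPM) and Hnrnpab (396 against 378 RPM). Prpf38b (-0.72 ± 0.37) and Sf3b3 (-0.68 ± 0.35) overlapped between the crosses. The genes were picked by their p-values, and the share of all tested genes without overlap was not counted, so no effect of the cross is read from this. All 6 were lower in the reverse cross, but the median over the 89 genes was -0.13 and 49 of them were lower. The lack of a call at this number of embryos does not show equal levels.

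In some genes a single reverse embryo stood apart from the embryos of both crosses. Rbm39, a U2AF-related splicing factor, had 163, 193 and 110 RPM in the forward embryos and 518, 216, 119, 192 and 201 in the reverse embryos. Snrpd3, a protein of the Sm ring, had 419, 408 and 403 in the forward and 153, 357, 436, 427 and 440 in the reverse embryos. In both genes reverse embryo 1 lay outside the range of all others, high for Rbm39 and low for Snrpd3. Summed over a group, the SF3A and SF3B subunits took 0.133% of the autosomal reads in this embryo and 0.214% to 0.238% in the other embryos. Sf3b5 held much of these reads, with 688 RPM in this embryo and 1262 to 1578 in the others. Sf3b6 went the other way and was highest in this embryo at 62.7 RPM. The Sm and snRNP proteins took 0.0998% against 0.145% to 0.189%, and the SR proteins 0.0586% against 0.0809% to 0.109%. RBM proteins took 0.367% against 0.157% to 0.250%, and U2AF subunits 0.00511% against 0.00649% to 0.00862%. Within the U2AF sum the genes went opposite ways, as U2af1 was highest in this embryo at 39.5 RPM and U2af1l4 lowest at 11.6. The sums therefore do not describe each gene of a group. The hnRNPs with 0.218% and the PRPF proteins with 0.0945% lay within the range of the other embryos, which was 0.194% to 0.299% and 0.0934% to 0.127%. Rbm47, whose protein is a cofactor of cytidine deamination and a regulator of splicing, had 1154 RPM there, 905 in reverse embryo 2 and 260 to 630 in the other embryos. The summed trophectoderm markers were lowest in the same embryo, mostly through Krt8 and Krt18 as given above. Their part in these differences was not tested. A sum that changes mostly through keratins is not read here as a smaller trophectoderm. A smaller fraction of cells of a type and less RNA per cell cannot be told apart in a whole blastocyst.

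**Figure D4:**
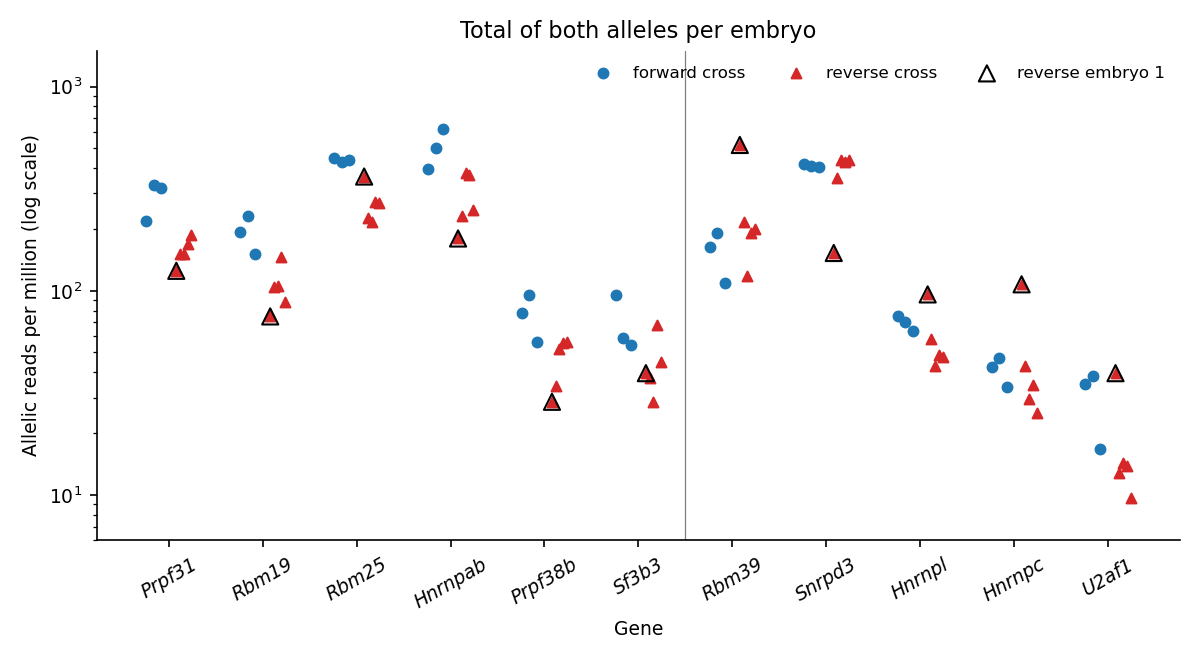
RPM (both alleles, log scale) per embryo for the 6 genes with the smallest p between the crosses (left of the line) and for 5 genes in which reverse embryo 1 stood apart from the other reverse embryos (right), with circles for the forward and triangles for the reverse cross. Prpf31, Rbm19, Rbm25 and Hnrnpab do not overlap between the crosses, but none was called. They were picked by their p-values, and the share of all tested genes without overlap was not counted. Reverse embryo 1 (outlined) is at 518 for Rbm39 and at 153 for Snrpd3.

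The other genes of the splicing pathway, which the symbols above do not cover, were taken from a list of 108 spliceosome and splicing regulator genes, of which 99 were tested. Equivalent expression from both parents was called for 71 of them (71.7%, against 35.6% of all tested genes, median reads 794). A parental bias was called for 1, the splicing regulator Mbnl2. It had 30 maternal and 190 paternal, 3 and 137, and 0 and 144 reads in the forward embryos. In the reverse embryos it had 0 and 325, 0 and 158, 0 and 35, 0 and 117, and 1 and 134. Paternal reads prevailed in every embryo, with a log2 fold change of 5.33 ± 0.70 (SE, edgeR adjusted p = 4.5e-05). Between the strains 8 were called (15.5% of all tested genes), 7 toward B6 (11.0%) and 1 toward cast (4.45%). Between the crosses edgeR called none, and 3 had an unadjusted p under 0.05 (7.38% of all tested genes).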

How the data were processed

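Single blastocysts were sequenced with a SMART-Seq2 compatible protocol. The authors aligned reads to mm10, the B6 genome, with STAR (version 2.5.2b per the submitters' processing notes), excluded reads mapping to multiple locations, kept reads over annotated SNPs and deposited raw counts per gene, embryo and strain from a step of Allelome.Pro. The gene annotation and strand setting are not given in the sources used here.

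Genes were placed with GENCODE M21 and RefSeq symbols. Alleles were compared with edgeR 4.0.16 in R 4.3.3 (quasi-likelihood, package defaults, TMM over 16 allele libraries, terms for strain and parent), totals between crosses with the same test, and p-values were adjusted over all 12565 autosomal genes with at least 10 reads in 1 allele library. Scripts were tested on simulated data. PCR duplicates cannot be told apart in these counts. DESeq2 1.42.0, other scalings, filters, a term per embryo and leaving out each embryo were alternatives. Copies were found with BLAST 2.17.0 (at least 95% identity over 100 bases).

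Alleles of an embryo come from the same animal, and their deviations from the group means correlated in each embryo (r of 0.132 to 0.677 over 6182 genes), so they were treated as paired in the fit with a term per embryo. The members and lists were chosen with earlier results of these data known. The text names genes called (up to 10 per direction), else the 6 smallest p-values, and core splicing factors. Genes of which reverse embryo 1 stood apart, and Hnrnpa2b1, Sf3b5, Rbm47 and the genes with copies, were named after their values were seen.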

Additional observations from a re-analysis of the deposited data

Results flagged for a closer look

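The paternal share lay on opposite sides in the crosses for many splicing genes. For 6 of them the difference passed the test of cast over B6 in edgeR without a term for each embryo. Their log2 fold changes were -4.44 for Snrpf, -3.62 for Srsf3, -1.56 for Srsf10, -1.41 for Sf3b3, 1.64 for Rbm45 and 0.77 for Hnrnpd.

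Of 87 sets of values from the reverse embryos (paternal share or RPM of the named and core genes), 9 had an embryo far from the others by Dixon's 95% criterion, where chance flags about 1 in 20. Reverse embryo 1 was the outlying embryo in 8 of them. Its paternal share was 79.7% for Rbm27 (36.1% to 46.3% in the others), 69.6% for Srsf10 (83.1% to 85.7%) and 60% for Snrpd3 (53.3% to 55.2%). Its RPM were 518 for Rbm39 (119 to 216), 153 for Snrpd3 (357 to 440), 108 for Hnrnpc (25.2 to 43.0), 96.0 for Hnrnpl (43.0 to 57.8) and 39.5 for U2af1 (9.69 to 14.3). The remaining one was Srsf5 in reverse embryo 7, with 8.72 RPM against 19.1 to 22.5. The trophectoderm markers of reverse embryo 1 are given above.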

How the results depend on the processing

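The parental and the cross comparison called 0 splicing genes under every alternative. For the strain comparison the 6 calls became 11 in DESeq2 (17.4% of all tested genes), 22 with the block for each embryo (25.5%), and 4 to 10 when an embryo was left out (9.90% to 20.6%; 10 without reverse embryo 1). The cause was not tested. The 52 equivalent genes became 26 to 61 without an embryo (12.9% to 47.4% of all tested genes) and 0 with a 1.5-fold margin, which is stricter by construction. Every-embryo filtering gave 63 of 69 (78.1%), no filter 41 of 95 (17.5%) and DESeq2 65 (45.3%). The median paternal share stayed within 44.6% to 45.7% (forward) and 53.8% to 55.4% (reverse). The embryo number does not pair the crosses (r = 0.27, 0.009 and 0.25), and a block for it called 0 splicing genes. No gene named for the parental, strain or cross comparison changed the sign of that fold change. Some core genes with small estimates did, such as Srsf1, whose cast over B6 went from 0.12 to -0.0087 with the block for each embryo. The splicing genes' median of cast over B6 turned from 0.04 to -0.30 with 1 library size per embryo. Hnrnpd and Rbm45 lost their calls in 8 and 6 alternatives. Genes with few reads, such as Hnrnpa1, could not be resolved at this depth.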
